A study of Mus musculus with 5 samples.

Results

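Integrins are receptors of the cell surface made of an alpha and a beta chain, and laminins are proteins of the basement membrane made of an alpha, a beta and a gamma chain. The mouse genes for 36 of these chains, 26 of integrins and 10 of laminins, were taken by their symbols from a table of 24768 loci, of which 23141 carried a gene name. They lay on 37 loci, because Itga3 was listed at a pair of loci with the same coordinates. All 37 passed the filter on low counts, and no locus was shared with a gene of another name. RNA had been sequenced from Lats1/2-mutated eye tumors of adult mice (3 libraries; genotype AAV5-Cre;Lats1/2 fl/fl, in which a viral vector delivers Cre recombinase to animals with floxed Lats1 and Lats2) and from the uvea, the pigmented middle coat of the eye, of adult mice that were wild type (2 libraries). Whether the wild-type mice received a vector, and whether each library stands for its own animal, is not stated in the labels, so p-values measure the spread between these libraries, which may be technical. Lats1 and Lats2 encode the kinases of the Hippo pathway, which restrain the transcriptional coactivators YAP and TAZ.

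Integrin heterodimers couple the matrix outside a cell to its actin or keratin skeleton. The ligand is set by the pair of chains: one class is used by leukocytes to bind other cells and complement, and others bind collagen, laminin or proteins that carry the tripeptide arginine-glycine-aspartate (RGD), such as fibronectin and the latent form of TGF-beta. Laminin heterotrimers build the sheet on which epithelial, endothelial, muscle and Schwann cells rest, and the alpha chain decides which integrins they engage. In the eye such sheets underlie the pigmented epithelia and surround vessels and the lens.

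The libraries held 12687703 to 14368272 fragments. Lats1 had 3.43, 3.90 and 2.94 FPKM in tumor libraries 1, 2 and 3 and 7.55 and 8.86 FPKM in the wild-type libraries, and Lats2 had 12.6, 17.0 and 14.3 FPKM in the tumors and 20.1 and 20.2 FPKM in wild type. FPKM are fragment counts scaled for transcript length and library depth, and they are given below in the order of the library numbers. Markers of melanocytes, which the series title would place in the tumors, were close to absent there: the 7 listed genes summed to 15.6, 30.1 and 8.88 FPKM in the tumors, against 6670 and 6447 FPKM in wild type, and all 7 fell. Those of the retinal pigment epithelium summed to 7.53, 62.2 and 10.6 FPKM in the tumors, against 10620 and 10470 FPKM in wild type, and those of retina and lens to 3.76, 19.0 and 38.8 FPKM in the tumors, against 1081 and 1152 FPKM in wild type. Of these lists 5 of 6 and 7 of 8 genes fell, with 0 rises. The tumors also differed from each other: tumor library 1 held 6859 FPKM of 8 skeletal muscle markers (408 and 460 in the other tumors, 479 and 461 in wild type), tumor library 2 held the most keratin 5, with 399.9 FPKM (5.98 and 20.8 in the other tumors, 356 and 379 in wild type), and tumor library 3 held the most of 14 leukocyte markers, with 1328 FPKM (777 and 682 in the other tumors, 179.8 and 191 in wild type). In bulk tissue, fewer cells of a type and less RNA per cell cannot be told apart.

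Over the whole family, 18 loci rose in the tumors, 4 fell and 15 did not pass the test. Among the falls is the first locus listed for Itga3, which may not measure that gene, as described below. A locus counted as changed at a Benjamini-Hochberg adjusted p under 0.05 in edgeR's quasi-likelihood F-test, adjusted over 15241 loci. Changes were frequent in the whole table, where 34.1% of tested loci passed, 18.7% of them as rises and 15.4% as falls. The log2 fold change of tumor over wild type, also called log2 change below, had a median of 1.37 over the 37 loci and of 0.05 over all tested loci. The FPKM of the tumors and of wild type did not overlap at 28 of the 37 loci, and at 69.5% of all tested loci, so that separation alone is near the background. The leukocyte class gave 7 of the 18 rises. With either wild-type library left out edgeR called 0 members, and DESeq2 then called 13 or 16 rises and 3 falls.

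**Figure D1:**
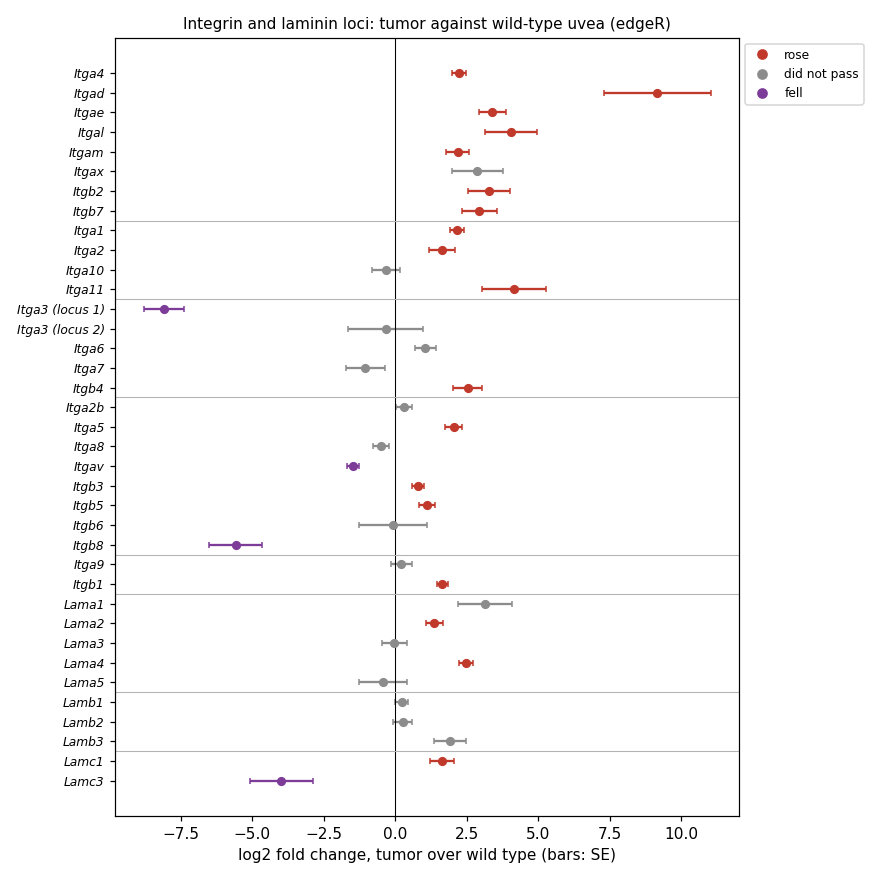
Log2 fold change (tumor over wild type, edgeR) of each integrin and laminin locus, with bars for the standard error. Horizontal lines part the classes, in the order leukocyte, collagen-, laminin- and RGD-binding integrins, Itga9 and Itgb1, then laminin alpha, beta and gamma chains. The 7 leukocyte chains that rose lie at 2.197 or above, and Itga3 locus 1, Itgav, Itgb8 and Lamc3 are the 4 loci that fell.

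Leukocyte integrins were higher in every tumor library than in either wild-type library for all 8 chains, and 7 passed the test. Over all tested loci the groups did not overlap at 69.5%, and 34.1% passed in either direction. Itgb2, the beta chain (CD18) common to the group that binds ICAM and complement, had 36.1, 30.4 and 110 FPKM in the tumors and 6.42 and 6.12 FPKM in wild type. Tumor library 3 stood far above the other tumors, and the groups did not overlap. The log2 fold change was 3.28 (SE 0.72, adjusted p = 0.028). Itgam, the alpha chain of Mac-1 (CD11b) of myeloid cells, had 18.6, 18.2 and 37.2 FPKM in the tumors and 5.37 and 5.77 FPKM in wild type, a log2 change of 2.197 (SE 0.40, adjusted p = 0.019). Itgal, the alpha chain of LFA-1 (CD11a), had 5.57, 4.68 and 21.5 FPKM in the tumors and 0.726 and 0.575 FPKM in wild type. Its log2 fold change was 4.06 (SE 0.90, adjusted p = 0.029).

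Itgax, which encodes the CD11c chain of dendritic cells and some macrophages, was the leukocyte chain that did not pass. It had 8.61, 16.1 and 44.2 FPKM in the tumors and 2.91 and 3.29 FPKM in wild type, with a log2 change of 2.88 (SE 0.89, adjusted p = 0.061). The tumors were all above wild type but spread widely among themselves, and without tumor library 3 the log2 fold change was 1.83 with an adjusted p of 0.033. Itgad, the alpha D chain, had no fragment in either wild-type library. Its fragments numbered 24, 45 and 146 in the tumors (0.449, 0.852 and 2.91 FPKM), at least 22.7-fold higher when each wild-type library is set to a floor of 3 fragments (adjusted p = 0.032). The floor covers counting error only. Itgal, Itgam, Itgax and Itgad lie on chromosome 7, and the last 3 are neighbors of similar sequence, so some reads may be split among them.

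The chains that pair with beta 7 or bind VCAM-1 also rose. Itga4, the alpha 4 chain that binds VCAM-1 and fibronectin, had 4.16, 3.46 and 6.01 FPKM in the tumors and 0.813 and 0.999 FPKM in wild type, a log2 change of 2.23 (SE 0.24, adjusted p = 0.0071). Itgb7, its partner in gut-homing lymphocytes, had 7.03, 8.39 and 21.3 FPKM in the tumors and 1.63 and 1.66 FPKM in wild type (log2 fold change 2.94, SE 0.61, adjusted p = 0.024). Itgae, the CD103 chain that binds E-cadherin, had 1.26, 2.23 and 2.41 FPKM in the tumors and 0.205 and 0.177 FPKM in wild type (log2 fold change 3.40, SE 0.47, adjusted p = 0.010). Each of these was low per length beside Itgb2. Tumor library 3 was the highest tumor for all 8 leukocyte chains. Without it the log2 change was 2.44 for Itgb2, 3.01 for Itgal and 2.27 for Itgb7, each still past the test (adjusted p = 0.0047, 0.0061 and 0.0076). In limma voom Itgad, Itgal and Itgb7 missed the threshold (adjusted p = 0.054, 0.098 and 0.068).

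Of the listed leukocyte markers, 10 of 14 rose and 0 fell. Ptprc, which encodes the pan-leukocyte antigen CD45, had 32.2, 19.97 and 47.2 FPKM in the tumors and 1.58 and 1.61 FPKM in wild type. Set against Ptprc in the same library, Itgb2 gave a ratio of 1.12, 1.52 and 2.34 in the tumors and 4.07 and 3.80 in wild type, and Itgam gave 0.578, 0.912 and 0.789 in the tumors and 3.40 and 3.58 in wild type. Ratios to Ptprc were lower in all 3 tumors than in wild type for Itgb2, Itgam, Itga4, Itgax and Itgb7. Those of Itgal overlapped, at 0.173, 0.234 and 0.455 in the tumors and 0.460 and 0.357 in wild type, and so did those of Itgae, at 0.039, 0.112 and 0.051 in the tumors and 0.130 and 0.110 in wild type. Itgad went the other way, at 0.014, 0.043 and 0.062 in the tumors and 0 in both wild-type libraries. The part of leukocyte number in the rise of these chains was not tested.

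Genes that switch leukocyte integrins on from inside the cell moved the same way. Of the 11 loci of that list of 10 genes, 10 rose and 0 fell, with a median log2 fold change of 3.41. Skap1 lay on 2 of these loci, and both rose. The smallest p belonged to Fyb, an adaptor of T cells and myeloid cells, with a log2 change of 4.31 (adjusted p = 0.0051), and to Skap2, its partner, with 2.39 (adjusted p = 0.0072). Among ligands of leukocyte integrins, 8 of 11 genes were tested and 2 rose with 0 falls. That share was under the 34.1% of all tested loci that passed in either direction. Vcam1, a ligand of alpha 4 integrins on activated endothelium, had a log2 change of 2.61 (adjusted p = 0.027), and C3, the complement protein whose fragment Mac-1 binds, a log2 change of 4.79 (adjusted p = 0.021). Icam1, the ligand of LFA-1, did not pass, at 22.2, 27.3 and 47.9 FPKM in the tumors and 18.9 and 19.1 FPKM in wild type. The endothelial markers gave 0 rises and 2 falls of 8, with sums of 156, 111 and 86.3 FPKM in the tumors and 181 and 181 FPKM in wild type.

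Promoters of Itgam and Itgb7 are shown because both chains rose and both windows hold the core motif of PU.1, a transcription factor of myeloid and B cells. Each window runs from 250 bases before to 50 bases after the start site in RefSeq (build GRCm38.p6), is written 5′ to 3′ on the strand of the gene and has the motif GAGGAA, or TTCCTC on the other strand, in capitals. Itgam lies at chr7:128062390-128062689 on the plus strand and Itgb7 at chr15:102231886-102232185 on the minus strand.
Itgam: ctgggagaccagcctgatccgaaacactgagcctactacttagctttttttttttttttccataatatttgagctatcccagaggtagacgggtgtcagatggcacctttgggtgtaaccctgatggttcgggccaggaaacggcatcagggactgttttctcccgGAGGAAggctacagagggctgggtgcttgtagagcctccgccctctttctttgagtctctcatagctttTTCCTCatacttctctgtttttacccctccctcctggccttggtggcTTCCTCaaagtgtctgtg
Itgb7: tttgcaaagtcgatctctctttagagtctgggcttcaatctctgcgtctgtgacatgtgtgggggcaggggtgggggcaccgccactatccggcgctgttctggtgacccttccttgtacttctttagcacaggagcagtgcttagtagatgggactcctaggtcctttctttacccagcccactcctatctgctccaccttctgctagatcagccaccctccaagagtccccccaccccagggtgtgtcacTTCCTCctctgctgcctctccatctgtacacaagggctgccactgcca
Itgam held 3 copies and Itgb7 held 1. The motif is common: 28.3% of 32851 mouse promoter windows of the same length held it, and 14 of 26 windows of the 23 member genes with an entry (53.8%). Those 14 belonged to chains of several classes, among them Itgav and Lama5, while the windows of the leukocyte chains Itga4 and Itgax held no copy, so the motif did not part the leukocyte class from the rest.

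**Figure D2:**
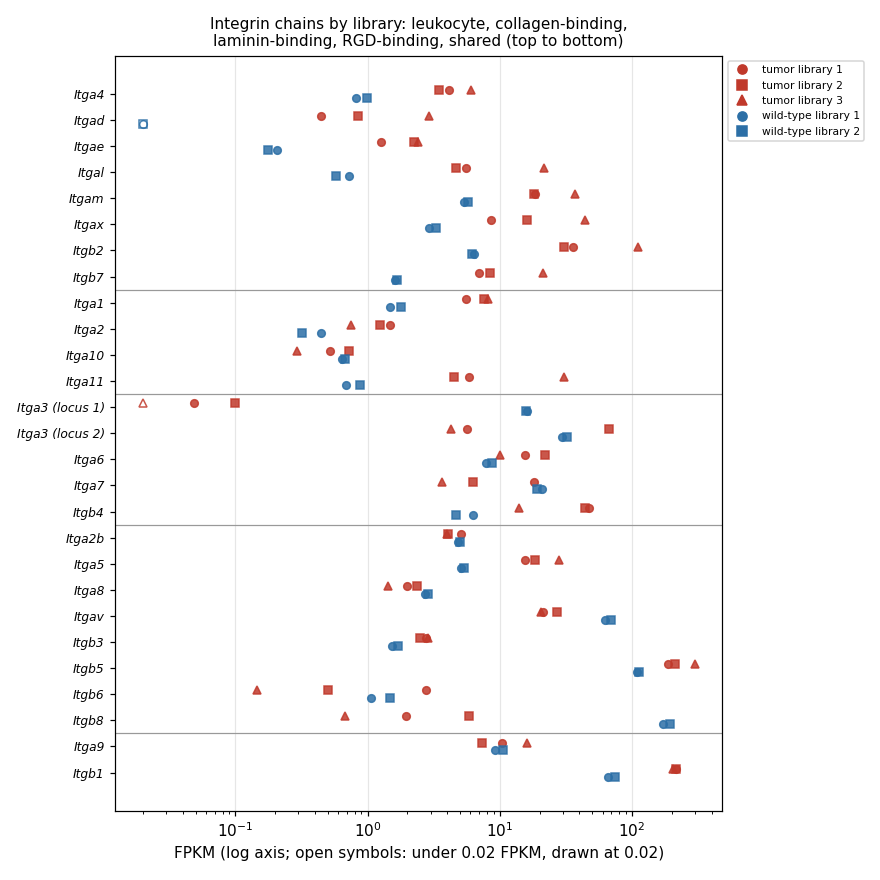
FPKM of each integrin locus in every library on a log axis, tumor libraries in red above and wild-type libraries in blue below on each row. Open symbols mark values under 0.02 FPKM. All 8 leukocyte chains have red symbols to the right of blue, Itgb8 has them far to the left, and the tumor libraries of Itga3 locus 2 lie on both sides of wild type.

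Collagen-binding integrins, whose alpha chains all pair with beta 1, rose for 3 of 4 chains. Itga1, the alpha 1 chain, which prefers basement membrane collagen, had 5.57, 7.63 and 8.19 FPKM in the tumors and 1.49 and 1.78 FPKM in wild type. The log2 fold change was 2.17 (SE 0.24, adjusted p = 0.0072), and the groups lay well apart. Itga11, the alpha 11 chain of fibroblasts that binds fibrillar collagen, had 5.83, 4.53 and 30.5 FPKM in the tumors and 0.691 and 0.881 FPKM in wild type. Tumor library 3 carried most of the difference in level, and the log2 fold change was 4.16 (SE 1.11, adjusted p = 0.044), with an adjusted p of 0.055 without tumor library 1 and of 0.149 in limma voom. Without tumor library 3 the log2 change was 2.76 (adjusted p = 0.0076).

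Itga2, the alpha 2 chain of platelets and epithelia, was low throughout, at 1.49, 1.24 and 0.746 FPKM in the tumors and 0.445 and 0.320 FPKM in wild type. Its log2 fold change of 1.64 (SE 0.46, adjusted p = 0.049) missed the threshold in 11 of 14 other settings that keep both wild-type libraries. Itga10, the alpha 10 chain of cartilage, stayed under 1 FPKM with overlapping groups (adjusted p = 0.63). Fibrillar collagens, ligands of this class, were among the fibroblast markers: Col1a1 had 755, 599 and 1419 FPKM in the tumors and 157 and 155 FPKM in wild type, and Col3a1 had 595, 447 and 965 FPKM in the tumors and 37.4 and 40.6 FPKM in wild type. Of the 7 fibroblast markers, 3 rose, all of them collagen genes, and 1 fell, and Dcn, which encodes the proteoglycan decorin, did not pass, at 809, 491 and 448 FPKM in the tumors and 1206 and 1373 FPKM in wild type. What share of the collagen receptor rise follows fibroblasts was not tested.

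Laminin-binding integrins went in different directions. Itgb4, the beta 4 chain that anchors hemidesmosomes to keratin, had 47.4, 44.0 and 13.9 FPKM in the tumors and 6.23 and 4.64 FPKM in wild type. Tumor library 3 was the lowest tumor, yet the groups did not overlap, and the log2 fold change was 2.54 (SE 0.51, adjusted p = 0.022; 0.052 without tumor library 1). Its partner Itga6, the alpha 6 chain, had 15.6, 22.1 and 9.96 FPKM in the tumors and 7.85 and 8.69 FPKM in wild type and did not pass (log2 fold change 1.06, SE 0.37, adjusted p = 0.081; 0.034 in DESeq2 and 0.022 without tumor library 3). The ratio of Itgb4 to Itga6 was 3.05, 1.99 and 1.40 in the tumors and 0.793 and 0.534 in wild type.

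Itga3, the alpha 3 chain that binds the laminins of epithelial sheets, was listed at both loci with coordinates chr11:95044472-95077400. How the authors' counting assigned reads to each is not given in the sources used here, so the level at either locus is uncertain. By its identifier the first locus stands among plus-strand genes of chromosome 11, between Itgae and Itgb3. The second stands, like Itga2b, after the plus-strand members, and Itga2b and Itga3 lie on the minus strand. The first may therefore not measure Itga3, which was not tested. At the first locus the FPKM was 0.049, 0.099 and 0 in the tumors and 16.0 and 15.8 in wild type (log2 fold change -8.09, SE 0.70, adjusted p = 0.0051). At the second it was 5.65, 67.1 and 4.29 in the tumors and 29.3 and 32.3 in wild type (log2 fold change -0.33, SE 1.31, adjusted p = 0.86). Summed over the loci, Itga3 had 5.70, 67.2 and 4.29 FPKM in the tumors and 45.3 and 48.1 FPKM in wild type. The sum is too high in wild type if the first locus does not measure Itga3. The second locus alone split the tumors in the same way. Tumor library 2 was thus above wild type and the other tumors far below it, and without that library the log2 change was -8.96 at the first locus and -2.84 at the second (adjusted p = 0.0048 and 0.0043).

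Itga7, the alpha 7 chain of muscle, also split the tumors, with 18.0, 6.31 and 3.67 FPKM, against 21.0 and 19.2 FPKM in wild type (log2 fold change -1.04, SE 0.69, adjusted p = 0.28). Tumor library 1, the one with 6859 FPKM of skeletal muscle markers (2 of 8 rose, 0 fell), lay just under wild type. Without it Itga7 passed, with a log2 change of -1.95 (adjusted p = 0.029). Likewise tumor library 2, which stood out for Itga3, held 748 FPKM of the 8 epithelial markers (1 rose, 1 fell), against 129.8 and 237.5 FPKM in the other tumors and 1117 and 1134 FPKM in wild type. Most of that sum was keratin 5 (399.9 FPKM) and keratin 14 (246.5 FPKM), and the list did not move as a whole: Krt8 had 53.5, 9.62 and 15.7 FPKM in the tumors, lowest in tumor library 2, and Epcam, Krt18, Krt19 and Esrp1 were not highest there. The part of these tissues in Itga3 and Itga7 was not tested.

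Around the hemidesmosome, 1 of 4 partner genes rose and 0 fell, a share under the 34.1% of all tested loci that passed. Plec, the cytolinker plectin, rose with a log2 change of 1.57 (adjusted p = 0.025). Col17a1, the transmembrane collagen of that structure, had 0.686, 14.0 and 1.07 FPKM in the tumors and 10.3 and 10.3 FPKM in wild type. Its high library was again tumor library 2. Laminin receptors outside the integrin family, dystroglycan, Bcam and the sarcoglycans, gave 0 calls of 7 in edgeR, with 1 at an unadjusted p under 0.05 and 1 in DESeq2.

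RGD-binding integrins rose for 3 chains, fell for 2 and did not pass for 3. The largest differences lay in the partners of alpha V, the chain of vitronectin and latent TGF-beta receptors. Itgb8, the beta 8 chain that holds latent TGF-beta for activation, had 1.95, 5.87 and 0.673 FPKM in the tumors and 172 and 195 FPKM in wild type. Every tumor library lay far below both wild-type libraries, and the log2 fold change was -5.58 (SE 0.93, adjusted p = 0.015), a fall in all 14 other settings that keep both wild-type libraries. Without tumor library 2 the log2 change was -6.57 (adjusted p = 0.0092). Itgav, the alpha V chain itself, had 21.2, 27.3 and 20.6 FPKM in the tumors and 62.4 and 69.9 FPKM in wild type (log2 fold change -1.47, SE 0.20, adjusted p = 0.010). Itgb5, the beta 5 chain of a vitronectin receptor, went the other way, with 186, 213 and 298 FPKM in the tumors and 109.7 and 112 FPKM in wild type (log2 fold change 1.11, SE 0.27, adjusted p = 0.035).

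Among the beta chains that can pair with alpha V other than beta 1, a set chosen after the values were seen, Itgb8 thus held 1.01%, 2.65% and 0.224% of the summed FPKM in the tumors and 60.5% and 62.8% in wild type. Itgb5 held 96.2%, 96.0% and 98.8% in the tumors and 38.6% and 36.2% in wild type. Per alpha V level, Itgb8 had a ratio of 0.092, 0.215 and 0.033 in the tumors and 2.76 and 2.79 in wild type. Levels of RNA do not show which chains were paired. Itgb8 and the pigment-cell and retinal markers given above were low in the same libraries. Tumor library 2, the tumor highest in Itgb8, was also the one highest in markers of melanocytes and of the retinal pigment epithelium. Tumor library 3, the tumor lowest in Itgb8, was lowest in markers of melanocytes but highest in those of retina and lens. The part of those tissues in the level of Itgb8 was not tested.

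The promoter of Itgb8 is shown for the member with the largest drop in FPKM, and that of Itgb1 for a member that rose and carries the core motif of TEAD, the DNA-binding partner of YAP and TAZ. Itgb8 lies at chr12:119238227-119238526 on the minus strand and Itgb1 at chr8:128685404-128685703 on the plus strand (GRCm38.p6, RefSeq). The motif GGAATG, or CATTCC on the other strand, is in capitals; Itgb8 held no copy of it and none of the PU.1 motif, and Itgb1 held 1 copy of each. The PU.1 copy in Itgb1 begins at the lower-case ga just before the capitals and overlaps the TEAD motif, so they share the letters GGAA.
Itgb8: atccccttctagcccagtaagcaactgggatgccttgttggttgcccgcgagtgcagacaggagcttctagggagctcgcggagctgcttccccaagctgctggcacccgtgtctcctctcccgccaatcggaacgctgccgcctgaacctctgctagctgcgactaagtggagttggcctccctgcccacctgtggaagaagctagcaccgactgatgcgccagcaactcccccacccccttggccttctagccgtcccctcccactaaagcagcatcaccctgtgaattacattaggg
Itgb1: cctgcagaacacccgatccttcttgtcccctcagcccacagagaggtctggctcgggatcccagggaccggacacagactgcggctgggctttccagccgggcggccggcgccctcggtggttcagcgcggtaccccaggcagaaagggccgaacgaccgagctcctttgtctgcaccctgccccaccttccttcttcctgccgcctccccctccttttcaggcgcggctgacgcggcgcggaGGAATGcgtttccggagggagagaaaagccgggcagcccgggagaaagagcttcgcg
TEAD motifs stood in 14.7% of the 32851 windows and in 3 of the 26 member windows, those of Itga10, Itgb1 and Lamb3. Of these genes Itgb1 rose, and Itga10 and Lamb3 did not pass. A match of letters is not a bound site.

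Itgb1, the beta chain common to the collagen, laminin and fibronectin receptors, had 216, 214 and 206 FPKM in the tumors and 65.4 and 74.0 FPKM in wild type. The tumors lay close together, and the log2 fold change was 1.65 (SE 0.19, adjusted p = 0.0076). Itga5, the alpha 5 chain of the classic fibronectin receptor, had 15.6, 18.4 and 28.3 FPKM in the tumors and 5.06 and 5.37 FPKM in wild type (log2 fold change 2.04, SE 0.31, adjusted p = 0.012). Fn1, the gene of its ligand fibronectin, had 324, 459 and 927 FPKM in the tumors and 18.2 and 19.7 FPKM in wild type. Both the receptor chains and the ligand were thus separated from wild type in every tumor, a separation seen at 69.5% of all tested loci.

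Itga9, the other chain that pairs with beta 1 outside the classes, binds tenascin-C and osteopontin. It had 10.4, 7.38 and 16.0 FPKM in the tumors and 9.25 and 10.5 FPKM in wild type, with overlapping groups (log2 fold change 0.22, adjusted p = 0.66). Itgb3, the beta 3 chain, had 2.76, 2.49 and 2.86 FPKM in the tumors and 1.53 and 1.70 FPKM in wild type (log2 fold change 0.79, SE 0.20, adjusted p = 0.040), a call lost in 8 of the 14 other settings. Itga2b, its alpha IIb partner on platelets, did not pass, with 4.01 to 5.09 FPKM in the tumors and 4.81 and 5.04 FPKM in wild type, while 2 of 4 tested platelet markers rose and 0 fell, and the defining platelet marker Gp6 was at 0 in the tumors and in 1 wild-type library. The platelet markers summed to 172, 102 and 321 FPKM in the tumors and 41.8 and 38.1 FPKM in wild type. Most of that sum was Pf4 (98.4, 36.1 and 152 FPKM in the tumors) and Gp1bb (71.7, 60.2 and 168 FPKM), the 2 that rose. Ppbp and Gp1ba did not pass, and Gp1ba had 0.223, 0.226 and 0.445 FPKM in the tumors and 0.796 and 0.794 FPKM in wild type. Itga8, the alpha 8 chain of a nephronectin receptor, and Itgb6, the epithelial beta 6 chain that also binds latent TGF-beta, did not pass (adjusted p = 0.24 and 0.97). Itgb6 ranged from 0.147 to 2.75 FPKM in the tumors, a range that holds both wild-type values of 1.05 and 1.49 FPKM.

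Of the 15 genes listed as ligands of RGD-binding integrins or as carriers of such ligands, 6 rose and 0 fell. Among all tested loci, 34.1% passed in either direction and 18.7% passed as rises. Their median log2 fold change was 1.54. Not every protein on the list carries the RGD tripeptide itself. The smallest p belonged to Lrrc32, which displays latent TGF-beta on the cell surface, with a log2 change of 2.42 (adjusted p = 0.0051), and to Postn, the matricellular protein periostin, with 2.95 (adjusted p = 0.0085). Adaptors that link integrins to actin gave 6 rises and 2 falls of 27, with a median log2 fold change of -0.02. Of those rises, Fermt3 and Parvg were also counted among the genes that switch leukocyte integrins on. Parvg, the parvin of blood cells, had a log2 change of 3.45 (adjusted p = 0.0076) and Zyx, a focal adhesion protein, a log2 change of 2.18 (adjusted p = 0.013). The falls were Tns1, a tensin that binds beta chain tails, at -1.26 (adjusted p = 0.022), and Bcar1, the docking protein p130Cas, at -1.50 (adjusted p = 0.032). Thus 8 of 27 adaptors passed, a share under the 34.1% of all loci.

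**Figure D3:**
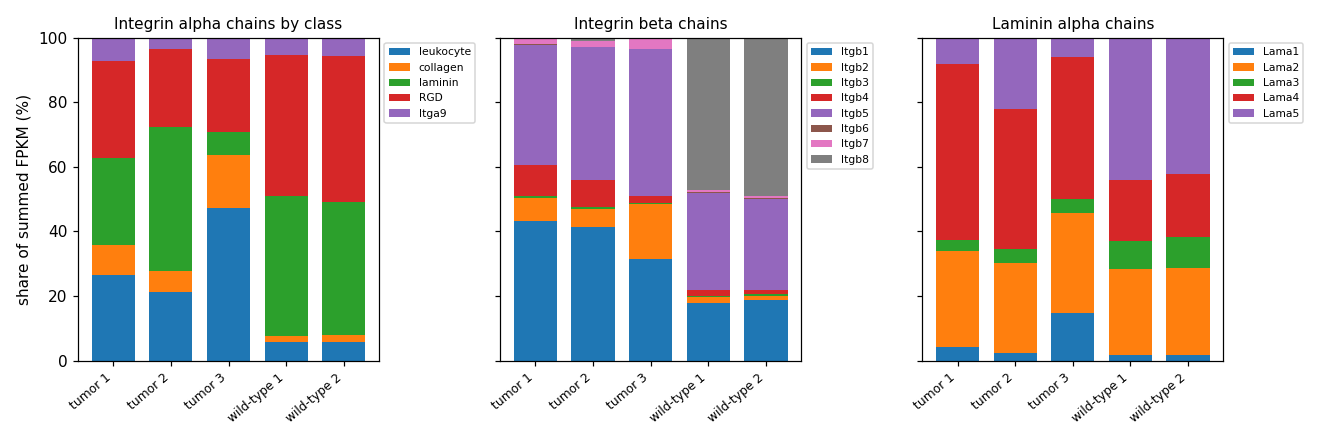
Share of summed FPKM in each library (%) held by each class of integrin alpha chain, each integrin beta chain and each laminin alpha chain, tumors to the left of wild type. Itgb8 holds 0.103% to 1.13% of the beta chains in the tumors and 47.3% and 49.1% in wild type, and Lama4 holds 43.4% to 54.5% of the laminin alpha chains in the tumors.

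Shares within a kind of chain put these levels on a scale that does not depend on library scaling. Leukocyte chains held 26.6%, 21.2% and 47.2% of the summed FPKM of the integrin alpha chains in the tumors, against 5.84% and 5.87% in wild type. Itgav held 14.5%, 12.7% and 8.51% of the same sum in the tumors and 36.3% and 38.0% in wild type. The share of Itga3 split the tumors instead, at 3.92%, 31.3% and 1.77%, against 26.4% and 26.1% in wild type. All shares of alpha chains count both loci listed for Itga3, so they depend on what the first of them measures. Among beta chains Itgb1 held 43.2%, 41.3% and 31.5% in the tumors and 18.0% and 18.6% in wild type. With 3 libraries against 2 an exact two-sided permutation test of a single share cannot go below p = 0.2, which was the smallest p among the 49 shares, so they stand as descriptions.

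Laminin alpha chains gave 2 rises and 0 falls of 5, a share of 40% that is near the 34.1% of all tested loci that passed. Lama4, the alpha 4 chain of vessel walls and mesenchyme, had 19.8, 31.0 and 23.2 FPKM in the tumors and 4.26 and 4.87 FPKM in wild type. The groups lay far apart relative to their spread, with a log2 change of 2.48 (SE 0.26, adjusted p = 0.0067). Lama2, the alpha 2 chain of muscle and Schwann cell basement membrane, had 10.8, 19.99 and 16.3 FPKM in the tumors and 5.99 and 6.61 FPKM in wild type (log2 fold change 1.37, SE 0.30, adjusted p = 0.028; 0.051 without tumor library 3). Lama1, the alpha 1 chain of early embryos and of the lens capsule, did not pass (log2 fold change 3.15, SE 0.94, adjusted p = 0.057), although its tumor values of 1.48, 1.66 and 7.77 FPKM all lay above the wild-type values of 0.407 and 0.439 FPKM. Tumor library 3 was the highest, and without it Lama1 passed with a log2 change of 1.93 (adjusted p = 0.0095).

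Lama5, the alpha 5 chain of mature epithelial and vascular sheets, had 2.98, 15.8 and 3.11 FPKM in the tumors and 9.91 and 10.4 FPKM in wild type. As for its receptor chain Itga3, tumor library 2 stood above wild type and the other tumors below it (log2 fold change -0.43, SE 0.83, adjusted p = 0.71). Without that library the log2 fold change was -1.72 (adjusted p = 0.0052). Lama3, the alpha 3 chain of epithelial anchorage, overlapped between the groups (1.27 to 3.10 FPKM in the tumors, 1.99 and 2.36 FPKM in wild type; adjusted p = 0.96). Within the summed laminin alpha chains Lama4 held 54.5%, 43.4% and 43.9% in the tumors and 18.9% and 19.8% in wild type, and Lama5 held 8.21%, 22.0% and 5.89% in the tumors and 44.0% and 42.1% in wild type. Lama2 held 27.9% to 30.9% in the tumors and 26.6% and 26.8% in wild type. The order of the most abundant alpha chain therefore ran Lama4, Lama2 in each tumor library and Lama5, Lama2 in each wild-type library.

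**Figure D4:**
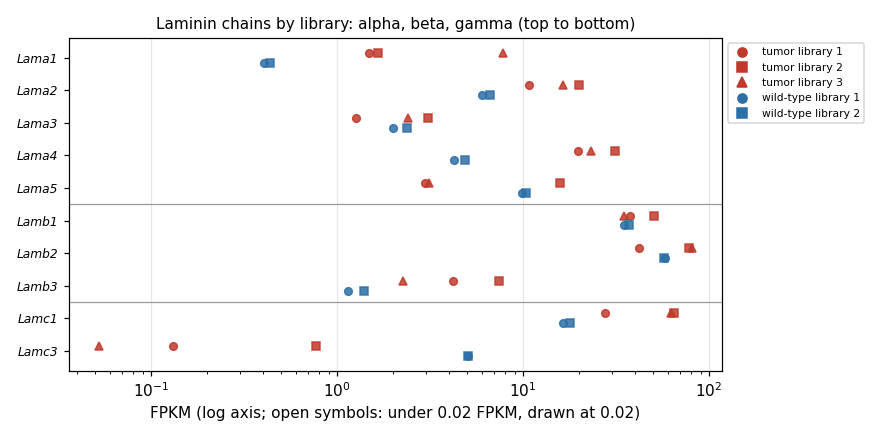
FPKM of each laminin chain in every library on a log axis, tumor libraries in red above and wild-type libraries in blue below on each row. Lama4 lies at 19.8 to 31.0 FPKM in the tumors, above both wild-type libraries, Lamc3 lies at 0.770 FPKM or less in the tumors, below both, and Lama3, Lama5, Lamb1 and Lamb2 overlap.

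Laminin beta chains gave 0 calls of 3 in edgeR, with 1 at an unadjusted p under 0.05 and 1 in DESeq2. Lamb1, the beta 1 chain, had 37.7, 50.4 and 34.9 FPKM in the tumors and 35.1 and 37.1 FPKM in wild type (log2 fold change 0.23, adjusted p = 0.45). Lamb2, the beta 2 chain of mature basement membranes, of the retina and of the neuromuscular junction, had 41.8, 78.2 and 81.4 FPKM in the tumors and 57.9 and 57.4 FPKM in wild type (log2 fold change 0.27, adjusted p = 0.56). The groups overlapped for both. Lamb3, the epithelial beta 3 chain, had 4.18, 7.40 and 2.28 FPKM in the tumors and 1.14 and 1.40 FPKM in wild type, apart in every library but short of the threshold (log2 fold change 1.92, SE 0.57, adjusted p = 0.056; 0.0073 in DESeq2).

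Of the gamma chains, one rose and the other fell. Lamc1, the gamma 1 chain of most laminins, had 27.7, 64.7 and 62.8 FPKM in the tumors and 16.5 and 17.8 FPKM in wild type (log2 fold change 1.64, SE 0.43, adjusted p = 0.042; 0.064 without tumor library 2 and 0.075 without tumor library 3). Lamc3, the gamma 3 chain found in retina and brain, had 0.132, 0.770 and 0.052 FPKM in the tumors and 5.08 and 5.05 FPKM in wild type. Every tumor was below wild type, and the log2 fold change was -3.98 (SE 1.10, adjusted p = 0.047; 0.102 without tumor library 1). Without tumor library 2 the log2 change was -5.76 (adjusted p = 0.0066), and with library sizes in place of TMM the adjusted p was 0.058. Within the summed gamma chains Lamc3 held 0.472%, 1.18% and 0.083% in the tumors and 23.6% and 22.1% in wild type.

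Partners of laminin in the basement membrane gave 4 rises and 0 falls of 13, with a median log2 fold change of 0.71. The share that passed was under the 34.1% of all tested loci that passed in either direction. Nid1, the nidogen that ties laminin to collagen IV, had a log2 change of 2.16 (adjusted p = 0.0073), with 70.2, 76.6 and 101 FPKM in the tumors and 18.3 and 19.9 FPKM in wild type. Hspg2, the proteoglycan perlecan, had a log2 change of 2.23 (adjusted p = 0.010), with 44.5, 73.2 and 72.7 FPKM in the tumors and 13.7 and 14.0 FPKM in wild type. With Lama4 and Lamc1, these genes were higher in all 3 tumors than in either wild-type library. The groups did not overlap, in either direction, at 69.5% of all tested loci. Schwann cell markers, listed because such cells make Lama2 and Lama4, gave 0 calls of 7 in edgeR, 0 at an unadjusted p under 0.05 and 0 in DESeq2, and smooth muscle and pericyte markers gave 0 rises and 1 fall of 7.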

How the data were processed

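RNA-seq libraries from 3 Lats1/2-mutated eye tumors and 2 wild-type uveal samples were analysed from the deposited table per replicate. The submitters' processing notes name build mm10 and, as tools, Cuffdiff, Cufflinks 2.2.1 and TopHat2 2.0.9. Which annotation, read filters and strand rule they used is not given in the sources used here, so reads from overlapping genes cannot be told apart. Protein-coding genes overlap Itga1, Itga4, Itga7, Itga10, Itgad, Itgae, Itgam and Lamb3. Per the file headers, the authors give an estimated count of fragments per locus, not scaled, and an FPKM scaled by them for length and depth. The condition name in the table gives the group. Replicate numbers there are not tied to those of the labels and only name libraries.

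Estimated counts were rounded to whole numbers. Loci without a gene name (1627 of 24768; 1.52% to 4.37% of fragments) were left out. Loci passing filterByExpr (minimum count 10) were scaled by TMM and tested in edgeR 4.0.16 (R 4.3.3), tumor over wild type with no covariate, two-sided, adjusted over 15241 loci by the Benjamini-Hochberg method. The script was tested on simulated data. Libraries of a group differed by more than sampling noise (chi-square per degree of freedom 102 to 129 between tumors and 5.43 between wild-type libraries), so each was kept. Alternatives were other scalings, no filter, DESeq2 1.42.0, limma 3.58.1 (voom, and limma-trend on log2 of FPKM plus 1 or 0.1), a replicate block and each library left out. Start sites and promoter windows are from RefSeq GRCm38.p6. The members and lists were chosen with earlier results of these data known. Every member is named; its values in all libraries are given where it passed the test or had a group mean of at least 10 FPKM, and up to 2 members past the test in each direction with the smallest p are named from each pathway list.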

Additional observations from a re-analysis of the deposited data

How the results depend on the processing

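With one wild-type library left out, edgeR called no locus in the whole table, since the spread then rests on the tumors and a lone control assumed to vary like them; 4085 and 3996 loci still had an unadjusted p under 0.05. Over the libraries left out in turn, rises therefore ran from 0 to 19 and falls from 0 to 6. In DESeq2, added after seeing the data, leaving out a wild-type library gave 13 and 16 rises and 3 falls each time. Under the other scalings, tests and filters, rises ran from 13 (voom) to 22 (DESeq2) and falls from 3 to 4. No member that passed the test changed direction in any of these settings. With the table's replicate number as a replicate block, 17 members rose and 3 fell. Over all loci 1710 rose and 1362 fell, against 2852 and 2349 without the block. Same-numbered libraries did not deviate together (correlations of 0.01 and 0.03 over the 2 shared numbers). These correlations cannot show whether a batch was shared. Both rest on the same difference between the 2 wild-type libraries, and the tumors differed far more among themselves. Voom reduced the rises among leukocyte integrins to 4 of 8 and among collagen-binding ones to 1 of 4; the cause was not tested. The 2 wild-type libraries limit every test here.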
